A study of Mus musculus with 18 samples.

Results

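B lymphocyte genes are described here as 30 genes whose products mark B cells, carry or tune the signal of their antigen receptor, or load peptides for T cells. Each gene's value is the mean log2 ratio of the probe sets annotated to that gene's symbol alone. All 30 genes were measured, by 55 probe sets, among 18193 genes with such probe sets on the array. Of the 30 genes, 21 had 1 probe set and 9 had several. The members are named by gene symbol, and no measured value is part of the rule, but the set was chosen with earlier results of these data known.

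Total RNA came from whole mammary glands of virgin female mice and was hybridised to Affymetrix mouse genome expression arrays. RonTK-/- mice carry a deletion of the tyrosine kinase domain of Ron, the receptor encoded by Mst1r, and RonTK+/+ mice are wild type. Each genotype was sampled at 5, 6 and 7 weeks of age, with 3 arrays in each of the 6 groups and 18 arrays in all. No treatment was given, the labels restrict the deletion to no tissue, and they name no strain background. The labels do not say whether the 3 arrays of a group came from separate animals, so p-values measure only the spread between these arrays, which may be technical. They also do not say which of the mammary glands were taken. The number of arrays limits the precision of every value below.

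B cells are lymphocytes that recognise antigen through a membrane immunoglobulin, whose signal is passed on by the Cd79a and Cd79b chains and by kinases and adaptors such as Blk, Btk, Blnk and Bank1. Their identity is set by transcription factors that include Pax5, Spib and the co-activator Pou2af1, and they present antigen to T cells on MHC class II molecules. Few B cells lie among the ducts of a virgin gland, whereas the fat pad of the mouse inguinal gland encloses a lymph node, in which B cell follicles lie beside T cell zones. In RNA of a whole gland, fewer cells of a type and less RNA per cell cannot be told apart.

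Promoter sequences of 4 members are shown, chosen for the range of the gene or for a motif. Pou2af1 had the widest range over the arrays, Vpreb3 one of the narrowest, and Blnk, Vpreb3 and Cd22 carry the rarer of the motifs searched. The sequences are the 250 bases upstream of the annotated start, 5′ to 3′ on the strand of the gene, from RefSeq annotation of GRCm38.p6. Capitals mark the octamer (ATGCAAAT, in its reverse complement ATTTGCAT) or the EBF palindrome (TCCC and GGGA with 2 bases between them).
Pou2af1 (chr9:51213440-51213689, plus strand): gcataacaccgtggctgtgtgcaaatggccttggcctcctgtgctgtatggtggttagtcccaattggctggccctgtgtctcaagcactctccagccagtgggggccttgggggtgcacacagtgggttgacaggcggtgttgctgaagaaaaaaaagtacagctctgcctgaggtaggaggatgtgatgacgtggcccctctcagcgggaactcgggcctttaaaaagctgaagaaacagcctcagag
Blnk (chr19:40994222-40994471, minus strand): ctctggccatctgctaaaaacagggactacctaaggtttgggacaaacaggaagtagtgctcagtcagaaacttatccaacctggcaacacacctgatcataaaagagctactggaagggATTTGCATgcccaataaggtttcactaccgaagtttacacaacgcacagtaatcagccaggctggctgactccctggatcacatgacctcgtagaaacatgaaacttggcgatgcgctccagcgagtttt
Vpreb3 (chr10:75948050-75948299, plus strand): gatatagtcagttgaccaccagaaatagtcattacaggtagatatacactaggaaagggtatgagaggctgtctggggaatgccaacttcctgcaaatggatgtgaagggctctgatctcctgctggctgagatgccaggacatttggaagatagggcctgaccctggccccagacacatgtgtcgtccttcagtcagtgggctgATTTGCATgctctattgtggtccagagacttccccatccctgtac
Cd22 (chr7:30879029-30879278, minus strand): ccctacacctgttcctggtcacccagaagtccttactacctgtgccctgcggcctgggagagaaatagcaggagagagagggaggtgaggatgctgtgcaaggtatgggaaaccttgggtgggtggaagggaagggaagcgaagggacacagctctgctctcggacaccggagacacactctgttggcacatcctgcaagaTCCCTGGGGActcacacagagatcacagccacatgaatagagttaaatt

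Of the 30 members, 22 had a promoter sequence in the table used. The octamer, bound by POU2F factors that recruit the Pou2af1 protein, was found on either strand in 2 of the 22, namely Blnk at 130 bases and Vpreb3 at 45 bases upstream of the start, against 1.81% of 27025 genes. The EBF palindrome was found in Cd22 alone, 49 bases upstream, against 0.914% of genes. The core of the PU.1 and Spi-B site (GAGGAA, or TTCCTC on the other strand) was found in 6 of the 22, in Cd79a, Fcrla, Cd37, Fcmr, Siglecg and Cd72, against 25.9% of genes. The 3 motifs do not contain one another. The Pou2af1 window held none of the 3. These matches describe letters in the window only.

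B cell transcripts were high in 10 arrays and low in 8, and both genotypes held arrays of both kinds. The median of the 30 genes lay between -1.24 and -1.03 in the 8 low arrays and between -0.32 and 0.82 in the other 10, with no array between -1.03 and -0.32. All values here are log2 ratios to the median of the 9 RonTK+/+ arrays, so a value of 0.00 in a RonTK+/+ array often marks the array that was itself the median. At 5, 6 and 7 weeks the arrays above the gap numbered 2, 2 and 1 of 3 in RonTK+/+, against 2, 3 and 0 of 3 in RonTK-/-. Each genotype thus had 5 of its 9 arrays above the gap.

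The 8 low arrays were RonTK+/+ array 3 at 5 weeks, array 1 at 6 weeks and arrays 1 and 3 at 7 weeks, with RonTK-/- array 2 at 5 weeks and all 3 arrays at 7 weeks. The same 8 arrays lay below the widest gap in the sorted values of 21 of the 30 members, against 1.92% of all genes. In 24 members each of these 8 arrays was below each of the other 10, against 4.32% of all genes. Since the 8 arrays were read from the members' own median, these shares describe the set and test nothing. After quantile normalization of the arrays the counts were 8 and 18 of 30. The gap in the members' median then nearly closed, with the highest of the 8 arrays at -0.62 and the lowest of the other 10 at -0.54. The widest gap of that median then left 9 arrays below. No single one of the 8 arrays was lowest throughout. The lowest value of a member fell in RonTK+/+ 5 week array 3 for 7 members, in RonTK-/- 7 week array 1 for 7, and in RonTK-/- 5 week array 2 for 6.

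**Figure D1:**
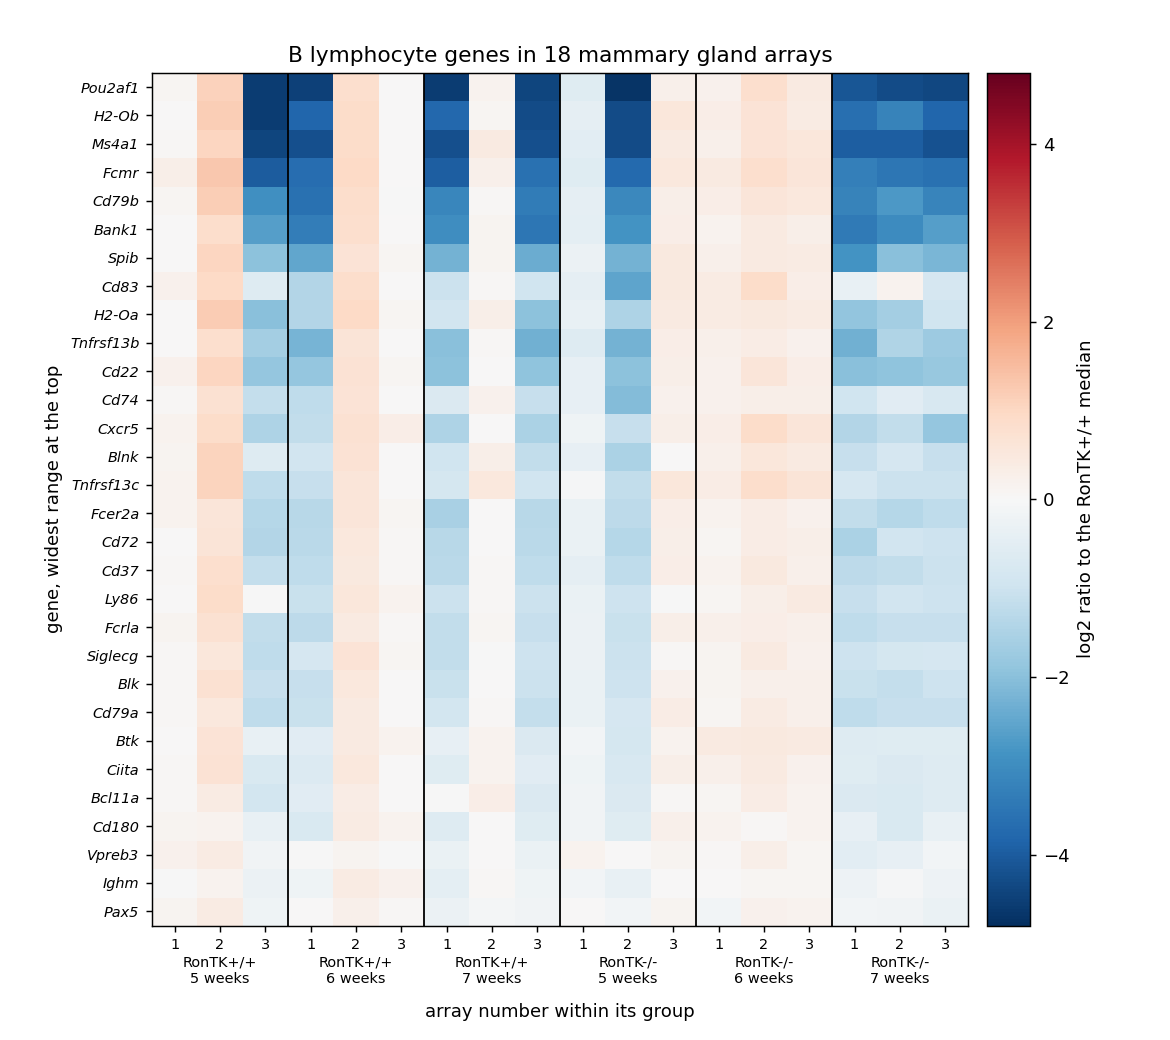
Log2 ratio to the RonTK+/+ median (colour) of the 30 B lymphocyte genes in the 18 arrays, grouped by genotype and age, with the gene of widest range at the top. Blue columns mark the 8 arrays that were low, 4 of each genotype, and the colour fades towards Pax5, Ighm and Vpreb3 at the bottom.

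The 10 higher arrays differed among themselves in a graded way. RonTK+/+ 5 week array 2 held the highest value of 27 of the 30 members, with a median of 0.82, and RonTK+/+ 6 week array 2 held the highest of the other 3, with a median of 0.60. RonTK-/- 5 week array 1 had the lowest value among the 10 for 28 of 30 members, with a median of -0.32. The 3 RonTK-/- arrays at 6 weeks had medians of 0.21, 0.44 and 0.28. Arrays of the same group could thus lie on both sides of the gap, and the 2 groups whose arrays all lay on one side were RonTK-/- at 6 weeks, above, and RonTK-/- at 7 weeks, below.

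The members' range over the 18 arrays ran from 0.70 to 5.79 on the log2 scale, with a median of 2.23, against a median of 0.538 over all genes. It was over 1 in 27 members, over 2 in 18 and over 4 in 6, while 4.96% of all genes had a range over 2. The 6 widest were Pou2af1, H2-Ob, Ms4a1, Fcmr, Cd79b and Bank1. Ratios do not hold the absolute signal, so how far above background a gene lay in the low arrays cannot be told, and its fold change there may be understated. A low ratio is therefore not a measured absence of B cells.

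Among the transcription factors, Pou2af1, a co-activator of octamer-binding factors that is needed for germinal centres, had the widest range of all 30 genes at 5.79, or 55.3-fold. Pou2af1 in the RonTK+/+ arrays measured 0.08, 1.09 and -4.55 (5 weeks), -4.47, 0.82 and 0.00 (6 weeks), then -4.57, 0.18 and -4.42 (7 weeks). Pou2af1 in the RonTK-/- arrays measured -0.59, -4.70 and 0.25 (5 weeks), 0.20, 0.82 and 0.42 (6 weeks), then -4.11, -4.28 and -4.36 (7 weeks). The 8 low arrays lay between -4.70 and -4.11 and the other 10 between -0.59 and 1.09 and no array lay between the 2 sets.

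Spib, an ETS factor of mature B cells, had the same split, with -2.88 to -1.97 in the 8 arrays and -0.26 to 1.04 in the other 10. Ciita, the co-activator that switches on MHC class II genes, had a narrower one, with -0.79 to -0.53 in the 8 and -0.20 to 0.68 in the 10. Bcl11a, a zinc finger factor needed for early lymphoid development and also expressed in mammary epithelium, did not follow in 1 array. Bcl11a in the RonTK+/+ arrays measured 0.05, 0.38 and -0.87 (5 weeks), -0.56, 0.36 and 0.03 (6 weeks), then -0.02, 0.31 and -0.71 (7 weeks). Bcl11a in the RonTK-/- arrays measured -0.18, -0.68 and 0.07 (5 weeks), 0.08, 0.34 and 0.16 (6 weeks), then -0.69, -0.72 and -0.60 (7 weeks). RonTK+/+ 7 week array 1, low in most other members, was at -0.02 in Bcl11a, above RonTK-/- 5 week array 1 at -0.18.

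Pax5, the factor that commits cells to the B lineage, had the narrowest range of the 30 genes at 0.70. Pax5 in the RonTK+/+ arrays measured 0.13, 0.38 and -0.21 (5 weeks), 0.00, 0.24 and 0.06 (6 weeks), then -0.28, -0.09 and -0.17 (7 weeks). Pax5 in the RonTK-/- arrays measured 0.02, -0.14 and 0.14 (5 weeks), -0.12, 0.20 and 0.16 (6 weeks), then -0.14, -0.18 and -0.31 (7 weeks). High and low arrays of the other members overlapped in Pax5, with -0.31 to 0.00 in the 8 and -0.12 to 0.38 in the other 10. Its 2 probe sets had ranges of 0.74 and 0.83. The order was kept in part, since the highest value was again in RonTK+/+ 5 week array 2.

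Of the 7 genes of the antigen receptor and its signalling, 4 had the common split and 6 had all of the 8 arrays below the other 10. Cd79b, a signalling chain of the receptor, had the widest range of these at 4.76, with -3.59 to -2.74 in the 8 arrays and -0.42 to 1.17 in the other 10. Cd79a, the chain it pairs with, ranged over 1.75, with -1.23 to -0.81 in the 8 arrays. The split was the same in both chains, and the sizes cannot be compared as levels since each gene has its own probe sets.

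Bank1, a scaffold that links the receptor to calcium release, had -3.46 to -2.65 in the 8 arrays and -0.48 to 0.84 in the other 10. Blk, a Src family kinase of B cells, had -1.16 to -0.99 and -0.31 to 0.72. Blnk, the adaptor that joins the kinases to phospholipase C, had -1.53 to -0.61 in the 8 arrays and -0.41 to 1.06 in the other 10. Its widest gap left 9 arrays below, RonTK-/- 5 week array 1 joining the 8. Btk, the kinase lost in X-linked agammaglobulinaemia, also parted the 8 arrays, at -0.86 to -0.36, from the other 10, at -0.14 to 0.64. The widest gap of Btk lay higher, between 0.18 and 0.42, and left 13 arrays below it.

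Ighm, the heavy chain of IgM, had a range of only 0.84 as a gene. Ighm in the RonTK+/+ arrays measured -0.01, 0.18 and -0.27 (5 weeks), -0.21, 0.38 and 0.22 (6 weeks), then -0.46, 0.07 and -0.19 (7 weeks). Ighm in the RonTK-/- arrays measured -0.12, -0.35 and 0.02 (5 weeks), 0.02, 0.10 and 0.10 (6 weeks), then -0.26, -0.05 and -0.23 (7 weeks). The 8 arrays, at -0.46 to -0.05, overlapped the other 10, at -0.12 to 0.38. The gene value is a mean of 11 probe sets that did not move together. Probe set 1427351_s_at ranged from -2.05 to 0.83 and 1427329_a_at from -1.52 to 0.76, and both were low in 7 of the 8 arrays, with RonTK-/- 7 week array 2 at -0.27 and 0.01. Probe sets 1425247_a_at, 1425324_x_at and 1427756_x_at were highest in RonTK+/+ 6 week array 2, at 0.86, 0.81 and 0.86, and in RonTK+/+ 6 week array 3, at 0.65, 0.52 and 0.62. None of the 11 parted all of the 8 arrays from the other 10. Immunoglobulin genes are a multigene family, and probe sets with the suffix x or s can match more than 1 transcript, so the Ighm values are uncertain. A further 4 probe sets that name Ighm together with other symbols were not used.

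**Figure D2:**
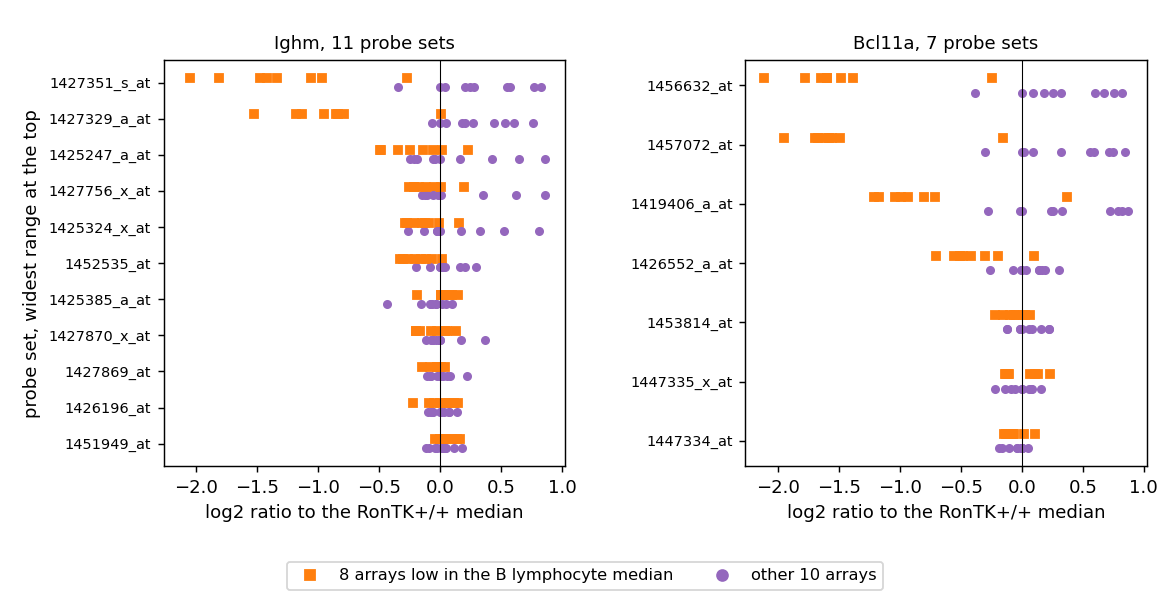
Log2 ratio to the RonTK+/+ median (horizontal axis) in each probe set of Ighm (left, 11) and Bcl11a (right, 7), with 1 point for each of 18 arrays. Orange squares are the 8 arrays low in the B lymphocyte median and purple circles the other 10, and the 2 colours part only in some of the probe sets, with 1 square among or beside the circles.

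Bcl11a showed the same within its 7 probe sets. Probe sets 1456632_at and 1457072_at, annotated to Bcl11a, had 7 of the 8 arrays at -2.11 to -1.38 and -1.95 to -1.49, and RonTK+/+ 7 week array 1 at -0.24 and -0.15. Probe set 1419406_a_at had that array at 0.37, above 6 of the other 10. The 3 flattest of Bcl11a stayed between -0.22 and 0.23 in every array. Over all 55 probe sets of the 30 genes, 42 had a range over 1, 31 parted the 8 arrays from the other 10, and 24 had the common split.

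Of the 13 surface receptors, 11 had the common split. Ms4a1 encodes CD20, the target of therapeutic antibodies against B cells. Ms4a1 in the RonTK+/+ arrays measured 0.07, 1.04 and -4.41 (5 weeks), -4.22, 0.89 and 0.00 (6 weeks), then -4.23, 0.45 and -4.21 (7 weeks). Ms4a1 in the RonTK-/- arrays measured -0.52, -4.29 and 0.42 (5 weeks), 0.26, 0.64 and 0.53 (6 weeks), then -3.96, -3.97 and -4.20 (7 weeks). The 8 low arrays lay between -4.41 and -3.96 and the other 10 between -0.52 and 1.04, a range of 43.7-fold. Both of its probe sets had the split, with ranges of 5.08 and 6.04.

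Fcmr, the Fc receptor for IgM, had -4.01 to -3.29 in the 8 arrays and -0.59 to 1.29 in the other 10. Cd22, an inhibitory sialic acid lectin of B cells, had -1.99 to -1.83 and -0.38 to 1.02. Siglecg, a second inhibitory lectin, had -1.23 to -0.80 and -0.30 to 0.66. Both lectins followed the common split. Cd72, an inhibitory receptor, had -1.52 to -0.91 in the 8 arrays, and Fcer2a, the low-affinity IgE receptor CD23, had -1.57 to -1.20. The 2 probe sets of Fcer2a differed in range, at 3.19 and 1.14.

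The receptors for the survival factors of B cells followed as well. Tnfrsf13b, encoding TACI, had -2.31 to -1.46 in the 8 arrays and -0.61 to 0.82 in the other 10. Tnfrsf13c, encoding the BAFF receptor, had -1.22 to -0.81 and -0.05 to 1.08. Cxcr5, the chemokine receptor that guides B cells into follicles, had -1.87 to -1.12 in the 8 arrays and -0.21 to 0.90 in the other 10. The tetraspanin gene Cd37 was closest to the other members, with a root mean square distance of 0.0811 over the 18 arrays from the median of the other 29. That distance had a median of 0.435 over the 30 genes and a maximum of 2.20 in Pou2af1, whose arrays were in the same 2 sets but farther apart.

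Cd180, a Toll-like receptor relative, had the split over a narrow range of 1.14, with -0.75 to -0.34 in the 8 arrays and -0.16 to 0.39 in the other 10. Ly86, which encodes MD-1, the partner that Cd180 needs at the surface, did not. Ly86 in the RonTK+/+ arrays measured 0.00, 0.87 and -0.03 (5 weeks), -1.07, 0.54 and 0.16 (6 weeks), then -1.05, 0.07 and -1.03 (7 weeks). Ly86 in the RonTK-/- arrays measured -0.33, -1.001 and -0.02 (5 weeks), 0.10, 0.30 and 0.44 (6 weeks), then -1.10, -0.93 and -0.98 (7 weeks). RonTK+/+ 5 week array 3, low in most members, measured -0.03 in Ly86, while the other 7 low arrays lay between -1.10 and -0.93. In that array the macrophage and dendritic cell list had a median of 0.26 over 18 genes, from -0.96 in Itgax to 0.91 in Adgre1, with 6 of the 18 below 0. Ly86 is also expressed by myeloid cells, and the part of such cells in the Ly86 value was not tested.

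Cd83, an activation marker of B cells and dendritic cells, departed from the rest in both directions. Cd83 in the RonTK+/+ arrays measured 0.21, 0.94 and -0.60 (5 weeks), -1.41, 0.83 and 0.00 (6 weeks), then -1.02, 0.04 and -0.95 (7 weeks). Cd83 in the RonTK-/- arrays measured -0.42, -2.54 and 0.47 (5 weeks), 0.39, 0.89 and 0.33 (6 weeks), then -0.37, 0.17 and -0.82 (7 weeks). RonTK-/- 5 week array 2 stood alone at -2.54, below all other arrays, and RonTK-/- 7 week array 2 was at 0.17, within the range of the 10 higher arrays. The span within the 8 low arrays was 2.71 in Cd83, against a median of 0.555 over the 30 genes.

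**Figure D3:**
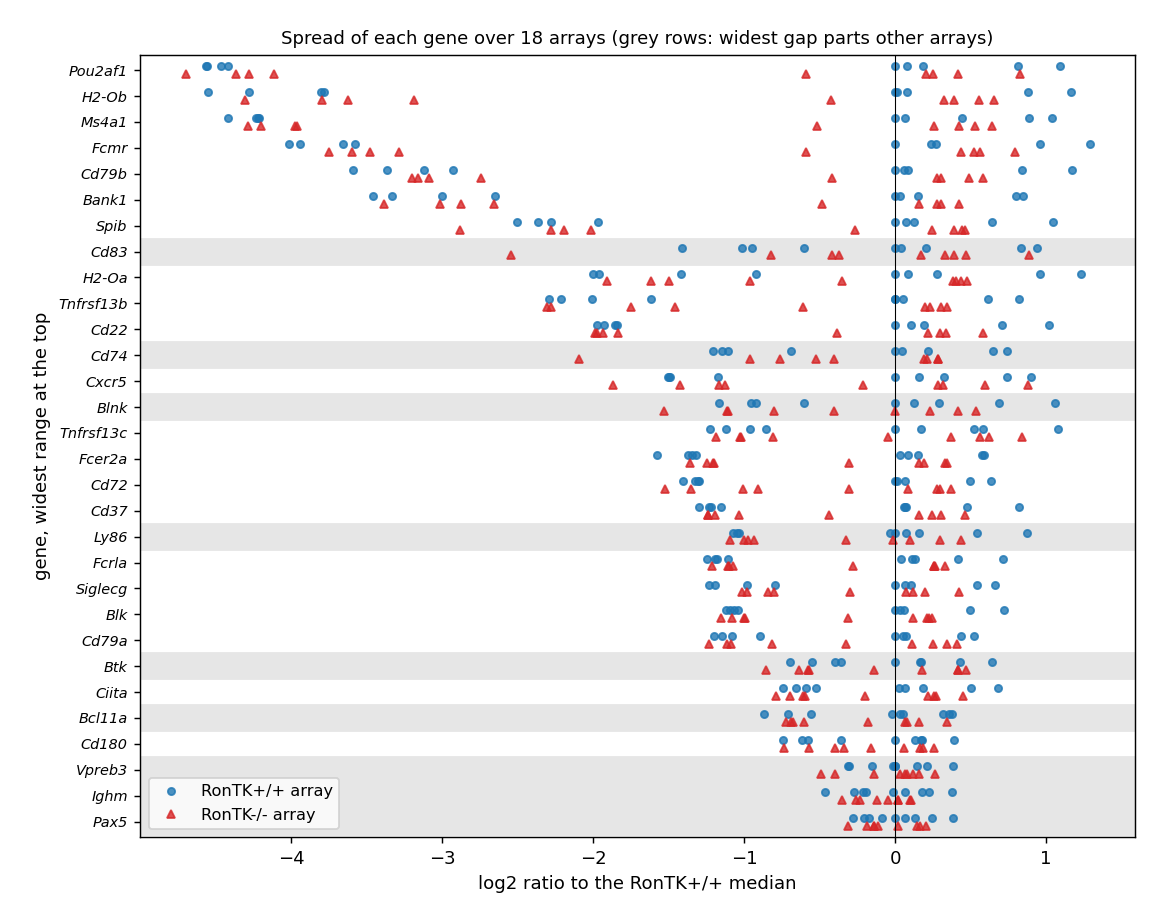
Log2 ratio to the RonTK+/+ median (horizontal axis) of each of the 30 genes, with 1 point per array, blue circles for RonTK+/+ and red triangles for RonTK-/-. In most genes the points form 2 clusters that each hold both genotypes, and the 9 genes shaded in grey have their widest gap elsewhere.

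Antigen presentation genes all placed the 8 arrays below the other 10, by very different distances. H2-Ob encodes a chain of the H2-O molecule that restrains peptide loading, and had -4.55 to -3.19 in the 8 arrays and -0.42 to 1.17 in the other 10. H2-Oa, its partner chain, had -2.00 to -0.92 and -0.35 to 1.23. Cd74, the invariant chain of MHC class II in every antigen-presenting cell, had a narrow separation. Cd74 in the RonTK+/+ arrays measured 0.05, 0.74 and -1.15 (5 weeks), -1.21, 0.65 and 0.00 (6 weeks), then -0.69, 0.22 and -1.11 (7 weeks). Cd74 in the RonTK-/- arrays measured -0.40, -2.09 and 0.21 (5 weeks), 0.19, 0.29 and 0.29 (6 weeks), then -0.96, -0.53 and -0.76 (7 weeks). The highest of the 8 arrays was RonTK-/- 7 week array 2 at -0.53 and the lowest of the 10 was RonTK-/- 5 week array 1 at -0.40. RonTK-/- 5 week array 2 was lowest at -2.09, as it was in Cd83.

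The remaining pair lie in the cell interior. Fcrla, an Fc receptor-like protein of germinal centre B cells, had the common split as a gene, although its 3 probe sets had ranges from 0.49 to 3.83. Vpreb3, which assists light chain assembly in B cell precursors, was one of the 3 flattest genes with a range of 0.87. Vpreb3 in the RonTK+/+ arrays measured 0.21, 0.38 and -0.16 (5 weeks), 0.00, 0.15 and -0.02 (6 weeks), then -0.31, 0.00 and -0.31 (7 weeks). Vpreb3 in the RonTK-/- arrays measured 0.16, 0.03 and 0.12 (5 weeks), 0.06, 0.27 and 0.08 (6 weeks), then -0.49, -0.40 and -0.14 (7 weeks). The 3 RonTK-/- arrays at 7 weeks were at or below -0.14, and the lowest other array was RonTK+/+ 7 week array 1 at -0.31. The 8 arrays, at -0.49 to 0.03, overlapped the other 10, at -0.02 to 0.38.

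The 9 members without the common split were thus of 2 kinds. Blnk, Btk and Cd74 still had all of the 8 arrays below the other 10. Pax5, Vpreb3, Ighm, Bcl11a, Ly86 and Cd83 did not, with the first 3 nearly flat as gene values and 1 or 2 arrays out of place in the last 3. Ighm was flat only as a mean of 11 probe sets, of which 1427351_s_at ranged over 2.87 and 1427329_a_at over 2.28.

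Of 9 measured genes of a further list of receptor and surface proteins, 5 had the common split, namely Cd52, Ltb, Ptprc, Cr2 and Cd40. The other 4, Cd24a, Fcgr2b, Cd55 and Cd81, did not part the 8 arrays from the other 10. Cd24a, a surface protein of B cells and of epithelium, measured 0.01 to 0.80 in the 8 arrays and -0.71 to 0.73 in the other 10. Cr2, complement receptor 2 of B cells and follicular dendritic cells, measured -3.10 to -2.48 in the 8 arrays and -0.68 to 1.08 in the other 10. Ltb, the lymphotoxin beta chain that shapes lymphoid tissue, measured -3.97 to -2.95 and -0.48 to 0.71.

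Of 13 receptor signalling genes, 5 had the common split and 8 had the 8 arrays below the other 10. Among these Ptpn6, a phosphatase that dampens receptor signals, had -1.45 to -0.88 in the 8 arrays, and Malt1, which activates NF-kB, had -1.18 to -0.83. Of 13 transcription factors outside the 30 genes, Irf8, Ikzf3, Ets1, Ikzf1 and Bach2 had the common split. Ikzf3, or Aiolos, measured -1.77 to -1.48 in the 8 arrays. Ebf1, needed for the B lineage and also expressed in adipose stroma, stayed between -0.45 and 0.25 in all 18 arrays. Mef2c, used by B cells and by muscle, ran another way, with its highest value of 0.98 in RonTK+/+ 6 week array 1, a low array for B cell genes.

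Of 7 MHC class II genes, 4 had the 8 arrays below the other 10, and H2-DMb2 had the common split. H2-Ab1, a classical class II chain, measured -2.04 to -0.55 in the 8 arrays and -0.29 to 0.86 in the other 10. RonTK-/- 5 week array 2 was again lowest. The germinal centre list had the common split in 0 of 7 genes and plasma cell genes in 1 of 9, Mzb1, at -1.61 to -1.25 in the 8 arrays.

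Genes of secreted antibody did not follow. Igha in the RonTK+/+ arrays measured 0.02, 0.47 and -1.49 (5 weeks), -0.52, 0.99 and -0.03 (6 weeks), then -0.15, 0.01 and 0.61 (7 weeks). Igha in the RonTK-/- arrays measured -0.55, -1.64 and 0.02 (5 weeks), 1.02, -0.30 and 0.24 (6 weeks), then 0.85, 0.95 and 1.14 (7 weeks). Igha, the IgA heavy chain, was high in the 3 RonTK-/- arrays at 7 weeks, where B cell genes were low, and lowest in RonTK-/- 5 week array 2 and RonTK+/+ 5 week array 3. Jchain in the RonTK+/+ arrays measured -0.24, 0.23 and -1.95 (5 weeks), -1.03, 0.99 and 0.05 (6 weeks), then -0.57, 0.00 and 0.46 (7 weeks). Jchain in the RonTK-/- arrays measured -0.65, -2.25 and -0.44 (5 weeks), 0.87, -0.46 and 0.01 (6 weeks), then 0.43, 0.29 and 0.77 (7 weeks). Jchain, which joins IgA and IgM into polymers, was lowest in the same 2 arrays, at -2.25 and -1.95.

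T cell genes had the same 8 low arrays. Of 15 measured T lymphocyte genes, 14 had the common split and all 15 placed the 8 arrays below the other 10. The median of this list was -2.73 to -2.33 in the 8 arrays and -0.50 to 0.97 in the other 10, lowest among the 10 in RonTK-/- 5 week array 1 and highest in RonTK+/+ 5 week array 2, as for the B cell genes. Cd3g, a chain of the T cell receptor complex, measured -4.87 to -3.68 and -0.57 to 1.11. Of 8 genes of lymph node stroma and high endothelial venules, 2 had the common split and 5 placed the 8 arrays below the other 10. Glycam1, made by high endothelial venules of lymph nodes and by milk-producing epithelium, measured -6.64 to -5.29 in the 8 arrays and -0.24 to 0.62 in the other 10, and the lowest of these is the smallest ratio in the table. Cxcl13, the chemokine of B cell follicles, measured -3.41 to -1.40 and -1.07 to 1.04. Tnfsf11, the RANK ligand, did not follow, with 3.17 in the low RonTK+/+ 7 week array 1 and 3.21 in array 2 of that group. Neither did Lifr, at 0.49 in the low RonTK+/+ 5 week array 3. Tnfsf13b overlapped only narrowly, at -0.568 to -0.181 in the 8 arrays and -0.184 to 0.570 in the other 10.

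Other cell types moved differently over the arrays. The macrophage and dendritic cell list had the split in 2 of 18 genes, Siglech and Flt3, and its median was -0.45 to 0.26 in the 8 arrays and -0.15 to 0.48 in the other 10. Skeletal muscle genes had a median of 0.09 to 0.57 in the 8 arrays. In the other 10, RonTK+/+ 5 week array 1 and RonTK-/- 5 week array 1 had muscle medians of 0.00 and 0.44, and the remaining 8 lay between -5.55 and -3.49. Epithelial genes had medians of -0.07 to 0.58 in the 8 arrays and -0.71 to 0.26 in the other 10. Muscle and lymphocyte levels were thus both split over the arrays, and the part of muscle and other tissue in the B cell values was not tested.

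**Figure D4:**
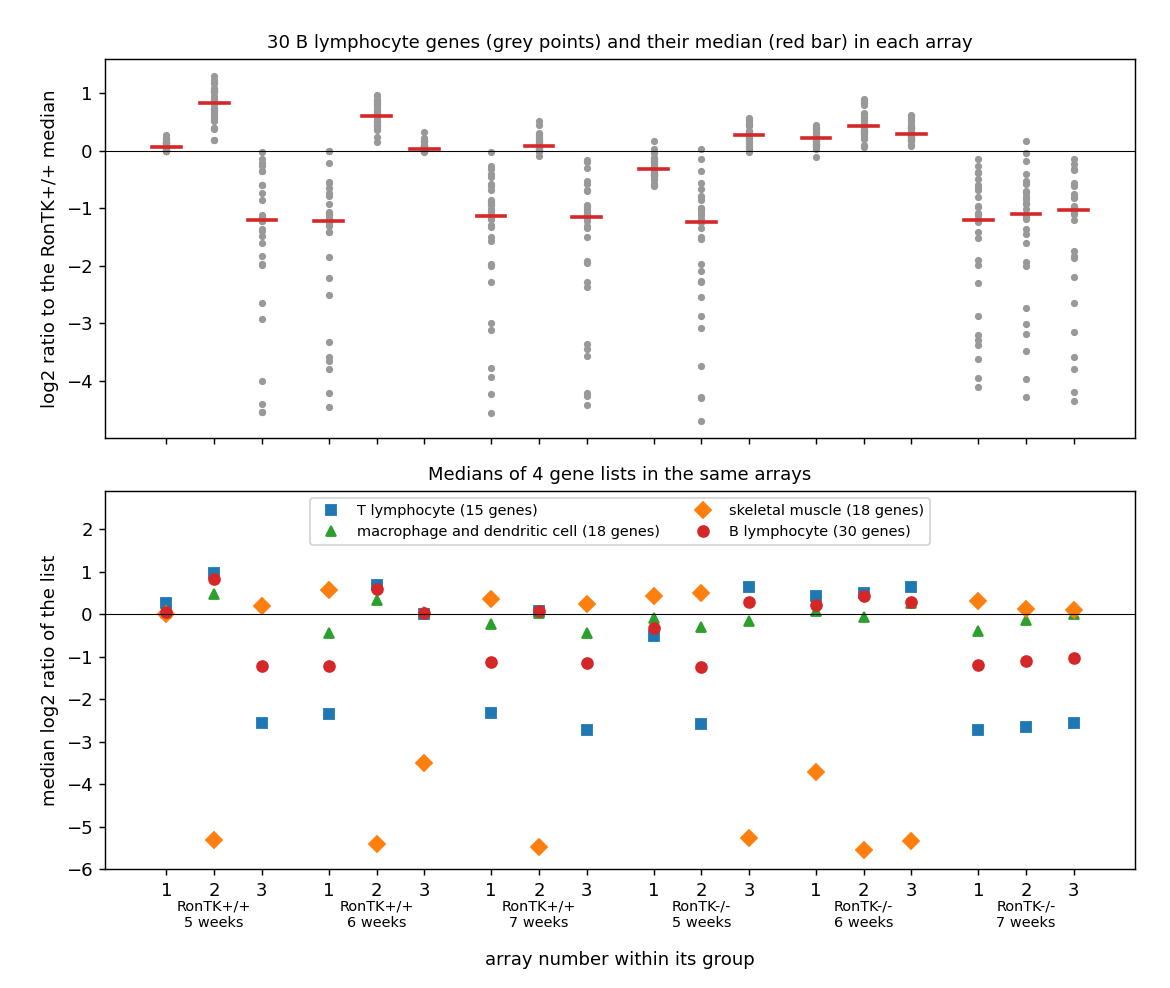
Top, log2 ratio to the RonTK+/+ median of each of the 30 B lymphocyte genes (grey points) and their median (red bar) in each array. Bottom, medians of the B lymphocyte, T lymphocyte, macrophage and dendritic cell, and skeletal muscle lists in the same arrays, where B and T lymphocyte medians fall together in 8 arrays and muscle medians fall in 8 of the other 10.

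Genes outside the set were ranked by closeness to the median of the members over the 18 arrays, leaving out predicted, RIKEN and accession-style names. The closest 10 were, in order, B3gnt5, Rhoh, Arhgap30, Slamf6, Napsa, Ikzf1, Spn, Acap1, Nfkbid and Dock2. Their root mean square distances ran from 0.0856 in B3gnt5 to 0.144 in Dock2. B3gnt5, a glycosyltransferase of lactosyl glycolipids, measured -1.26 to -1.14 in the 8 arrays and -0.30 to 0.79 in the other 10. Only Cd37 among the members was closer, at 0.0811 from the median of the other members. All of these distances rest on the same 18 arrays.

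The comparison of genotypes asks whether loss of the Ron kinase domain changes the gland at each age. Mst1r itself was measured by 1 probe set. In RonTK+/+ arrays the Mst1r ratio was 0.975, 0.857 and 1.06 (5 weeks), 1.16, 1.00 and 1.13 (6 weeks), then 0.808, 0.857 and 1.40 (7 weeks). In RonTK-/- arrays it was 0.870, 0.740 and 1.16, then 1.56, 1.41 and 1.32, then 1.22, 2.10 and 1.30. Mst1r values overlapped between the genotypes at 5 and 7 weeks. At 6 weeks the probe set was higher in all RonTK-/- arrays than in all RonTK+/+ arrays, as were 5.55% of all genes. No source used here places it inside or outside the deleted kinase domain, and the genotype labels are therefore unchecked by it.

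No B lymphocyte gene passed the test for genotype. Over the 3 ages 0 of 30 members had an adjusted p under 0.05 in limma, against 0.0605% of all genes, and 0 had an unadjusted p under 0.05, against 3.77%. The RonTK-/- minus RonTK+/+ difference had a mean over the members of -0.06 and a median of -0.05, against a median of 0.003 over all genes. That mean lay between -0.28 and 0.13 with single arrays left out, and was above 0 without RonTK+/+ 5 week array 2, 6 week array 2 or 3, or 7 week array 2, or without RonTK-/- 5 week array 2. The smallest unadjusted p was that of Ly86, at 0.360, with an adjusted p of 1.00 by limma. The spread between arrays of one group was far larger than this difference. At 5, 6 and 7 weeks the mean of Ms4a1 was -1.10 ± 2.91, -1.11 ± 2.73 and -2.67 ± 2.69 in RonTK+/+ (SD, n = 3). The RonTK-/- means were -1.46 ± 2.49, 0.48 ± 0.20 and -4.04 ± 0.13 (SD, n = 3). Its difference over ages was -0.05 with a standard error of 0.97. A p-value that misses the threshold does not show that B cell transcripts were equal in the genotypes.

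At 5 weeks all 30 members had a negative mean difference, with a mean of -0.35 and a median of -0.26, and 0 of 30 passed the test, against 0.011% of all genes. An unadjusted p under 0.05 was found in 0 of 30 by limma, against 3.42%. Left out one at a time, RonTK-/- array 2 turned the mean to 0.22 and RonTK+/+ array 2 turned it to 0.16, while it became -1.02 without RonTK+/+ array 3, -0.78 without RonTK-/- array 3 and -0.19 without RonTK+/+ array 1. At 6 weeks 28 of 30 members had a difference above 0, with a mean of 0.65 and a median of 0.50, and 0 of 30 passed, against 0.0165% of all genes. None of the 30 had an unadjusted p under 0.05 by limma, against 6.15%. The mean was -0.0006 without RonTK+/+ array 1, the only low array of that age, and 1.11 without RonTK+/+ array 2. With the muscle list as a covariate it was 0.04, and with the T lymphocyte list -0.06.

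At 7 weeks 28 of 30 members had a difference below 0, with a mean of -0.48 and a median of -0.41, and 0 of 30 passed, against 0.033% of all genes. By unadjusted limma p the count was again 0 of 30, against 9.75%. RonTK+/+ array 2 was the only array of that age above the gap, and without it the mean was 0.10. It was -0.74 and -0.79 without RonTK+/+ arrays 1 and 3. With either covariate the mean at 7 weeks was also above 0, at 0.05 for muscle and 0.08 for T lymphocyte genes. All 15 T lymphocyte genes placed the same 8 arrays below the other 10, so that covariate carries the split of the members. Muscle genes were also split over the arrays. The means with covariates at 6 and 7 weeks therefore describe the values and test nothing. The groups did not overlap in 1 of 30 members at 7 weeks, Ciita, lower in RonTK-/-, against 3.35% of all genes, and none was without overlap and higher, against 6.38%. At 5 weeks 0 of 30 members were without overlap, against 5.12% of all genes higher and 3.09% lower in RonTK-/-. At 6 weeks it was 0 of 30, against 5.55% higher and 8.77% lower. Ciita had a difference of -0.32 ± 0.36 (SE) at 7 weeks with a limma adjusted p of 0.810. Its separation was thin, with RonTK+/+ array 1 at -0.588 and RonTK-/- array 1 at -0.594. In its probe set 1447075_at the same 2 arrays were at -0.606 and -0.362, so the groups overlapped there.

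Of the members, 0 passed the test of whether the genotype difference changed with age, against 0% of all genes, and 0 had an unadjusted p under 0.05 by limma, against 6.82%. Nor did any member pass for age within a genotype, with 0 of 30 in RonTK+/+ against 0.104% of all genes and 0 of 30 in RonTK-/- against 0.0385%. For each gene the fit used 1 estimate of the spread for all groups. The SD of Ms4a1 was 2.91 in RonTK+/+ at 5 weeks, but 0.20 and 0.13 in RonTK-/- at 6 and 7 weeks. Missing the threshold for age thus does not show that the ages were equal. At an unadjusted p under 0.05, limma gave 1 of 30 members in RonTK+/+ against 8.92% of all genes, and 11 of 30 in RonTK-/- against 17.5%. With limma's array weights, which gave RonTK-/- 5 week array 1 a weight of 50.8 and stopped short of convergence, 27 members passed for age in RonTK+/+ and 28 in RonTK-/-. A limma p of 0.0149 there became an adjusted p of 0.0314 (Tnfrsf13c, RonTK+/+), a small step that arises when many of all genes have low p-values. The share of all genes that passed with these weights is not given here, so both counts are no result about the members. In RonTK-/- without weights the smallest p was that of Vpreb3, 0.00411 with a limma adjusted p of 0.183. In the same comparison of ages, 12 of 15 T lymphocyte genes and 3 of 18 muscle genes had an unadjusted p under 0.05 in RonTK-/-. No gene of the B cell receptor, signalling, transcription factor, MHC class II or plasma cell lists passed the adjusted threshold in any of the 7 comparisons.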

How the data were processed

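Per the labels' protocols, fat was spun out of the TriZol lysate, and the RNA was amplified for 1 round and biotin labelled. The deposited values are linear ratios, found so from the values: each array has a median of 1, and 87.4% of 45101 probe sets have a RonTK+/+ median within 1e-04 of 1. How the other 12.6% were scaled, the summary of probe sets and the software: not given in the sources used here. Ratios keep no absolute signal, so no dim probe set was left out.

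Values were taken as log2 of the ratio without a pseudocount. After 64 control probe sets were removed, 34945 probe sets had 1 symbol in the platform annotation, 932 had several and 9160 had none; 34741 matched RefSeq. The median gene value of each list was taken per array. Limma 3.58.1 in R 4.3.3 fitted 6 group means to all 18 arrays, with Benjamini-Hochberg adjustment over 18193 genes and a threshold of 0.05. For age, a moderated F test covered the 3 ages. On simulated data for genotype over ages (18193 genes) the fit recovered 43 of 50 genes changed 1.5-fold and 49 of 50 changed 2-fold, with 5 false calls. These counts do not give the power for the members, whose median standard error in that comparison was 0.33 on the log2 scale. The genes named are all 30 members, the 10 nearest genes, up to 4 of widest range per list and Mst1r; Ebf1, Cd24a, Fcgr2b, Cd55, Cd81, Lifr, Tnfsf13b, Cd40, Ikzf1, Bach2, H2-DMb2, Siglech and Flt3 were named after their values were seen. The members and all lists were chosen with earlier results of these data known. Alternatives were other normalizations, gene values, array weights, covariates, a replicate block and single arrays left out.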

Additional observations from a re-analysis of the deposited data

How the results depend on the processing

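Signal over background is unknown, and 3 arrays a group limit every comparison. Quantile normalization moved the members with the common split from 21 to 12, counted against the members' median under that setting, whose widest gap leaves 9 arrays below; there 8 members had their widest gap above the original 8 arrays and 18 had all of those 8 below the other 10. Across single arrays left out, the count ran from 20 to 23 and the median distance from the other members from 0.394 to 0.447, and 0 members were called in any of the 7 comparisons. The mean of the members ran from -0.28 to 0.13 over ages, -1.02 to 0.22 at 5 weeks, -0.0006 to 1.11 at 6 weeks and -0.79 to 0.10 at 7 weeks. Array weights called 1 member for genotype at 7 weeks (Bcl11a, -0.62 ± 0.17 SE, limma adjusted p = 0.0213), 27 for age in RonTK+/+ and 28 for age in RonTK-/-. These weights stopped before the convergence tolerance, with 50.8 for RonTK-/- 5 week array 1 and 0.218 to 5.67 for the others. The skeletal muscle covariate called 1 member for age in RonTK+/+ (Ly86, limma adjusted p = 0.0365). The cause of these changes was not tested. The share of all genes called with the weights or with this covariate is not given here. The calls are therefore not read as particular to the members. All other alternatives called 0 members.

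With the replicate number as a block, 0 members were called in every comparison and the means stayed at -0.06, -0.35, 0.65 and -0.48. Whether the numbers pair the samples cannot be told from the correlations between arrays. Arrays of the same number correlated at -0.82 to 0.63, above 0.1 in 5 of 9 pairs, and 9 of 18 arrays correlated best with their own number.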
